A study of Rattus norvegicus with 102 samples.

Results

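The transcripts of 9 genes whose products write, remove or act on chromatin marks were followed through the subfields of the rat hippocampus. They were the DNA methyltransferases Dnmt1 and Dnmt3a, the methylcytosine dioxygenases Tet1, Tet2 and Tet3, and the histone deacetylases Hdac2, Hdac3, Hdac4 and Hdac5. A gene was taken where its symbol in the expression tables was equal to one of these names, which gave 9 of the 26284 genes listed in the Illumina table, and the same 9 in the Ion Proton table with 26341. The tissue came from 34 male rats of the strain labelled Fisher 344 (Fischer 344 in the study's methods), of which 10 were young (5 to 6 months) and 24 were aged (17 to 22 months). No rat carried an engineered allele or received a drug according to the labels. The aged rats had been tested for how well they remembered the place of a hidden platform in a water maze, and were divided into 12 unimpaired and 12 impaired animals. CA1, CA3 and the dentate gyrus (DG) had been dissected from each rat, so that each table held 1 library per rat and subfield. Dissected tissue holds neurons and glia together, so fewer cells of a type and less RNA per cell cannot be told apart.

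DNA methyltransferases add a methyl group to cytosine, mostly where a cytosine is followed by a guanine (a CG site). Dnmt1 copies the mark to the new strand after replication, whereas Dnmt3a can set it at sites that lacked it. Tet enzymes oxidise methylcytosine and so open the way to its removal. Histone deacetylases take acetyl groups off histone tails and mostly serve repression. Hdac2 and Hdac3 are class I enzymes that work inside corepressor complexes, and Hdac4 and Hdac5 are class IIa proteins that shuttle between nucleus and cytoplasm and bind Mef2 transcription factors. Both kinds of mark have been studied widely in memory formation and in aging.

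Poly-A RNA from the same tissue had been read by 2 platforms, Illumina and Ion Proton, and the values are reads divided by a size factor per library (normalised reads). Errors are SD over rats unless an SE is named, and every difference was taken after log2(value + 1). The Illumina libraries held 3.25 to 42.8 M reads on genes (median 10.7 M) and Ion Proton libraries 4.47 to 21.4 M (median 9.74 M). Of the markers of the labelled subfields, 6 of 6 tested CA1 pyramidal markers were called higher in CA1 than in DG and 7 of 7 dentate granule markers higher in DG than in CA3. The granule markers were also called lower in CA1 than in DG for 6 of 7, but higher in CA1 than in CA3 for 6 of 7, and their summed level had a median of 2862 normalised reads in CA1, against 5699 in DG and 1122 in CA3. Of 7 tested CA2 and CA3 pyramidal markers, 5 were called higher in CA3 than in CA1, but against DG 2 were called higher in CA3 and 1 lower. However, 14 libraries lay nearer to another subfield than to their own in both poly-A tables, and 9 of these were CA3 libraries. They came from 12 rats. Rats with numbers from 9000 up, 16 in all, made up 11 of these 12, and the 18 with lower numbers made up 1. In the aged impaired rat R9781 the CA3 library lay nearest to DG and the DG library nearest to CA3. What the number series stands for is not given. The lower series held 5 young and 13 aged rats and the higher 5 and 11. These numbers match those described for the Florida and the Arizona animals, but the labels tie no rat to a site. The series is treated below as a possible batch. Calls of the 9 genes were repeated without the 14 libraries, and those that changed are given below. Marker counts, pathway lists and tests between the number series were run with all libraries only.

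All 9 genes were detected in every library. The fewest recovered reads for any of them were 18 in an Illumina library and 11 in an Ion Proton library, both for Tet1. Tet1 also had the widest spread, with a coefficient of variation of 39.0% over all Illumina libraries, against 8.14% for Hdac3 and 10.2% for Dnmt1. Without 1 CA3 library described further on, that of Tet1 was 23.9% and that of Tet3 went from 33.8% to 16.2%.

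Among the DNA methyltransferases, Dnmt1 stood at 645 ± 61.5 normalised reads in DG, 613 ± 52.4 in CA1 and 582 ± 59.5 in CA3 (n = 34 each). Dnmt3a stood at 415 ± 49.7 in DG, 385 ± 49.3 in CA1 and 383 ± 101.5 in CA3. For both genes the order of the means was DG, CA1 and CA3, and neither CA1 and DG nor CA1 and CA3 differed by the call described below. The dioxygenases lay close together across subfields. Tet1 had 67.4 ± 17.9, 75.0 ± 40.3 and 63.5 ± 13.0 normalised reads in CA1, CA3 and DG. Tet2 had 400.2 ± 50.3, 418 ± 86.1 and 433 ± 48.9, and Tet3 had 306 ± 48.5, 312 ± 170 and 309 ± 46.5. The SD of Tet1 and Tet3 in CA3 included the high value of a single library, described further on. Of the deacetylases, Hdac4 stood highest in CA3 with 469 ± 99.1, followed by DG with 446 ± 61.7 and CA1 with 394 ± 59.1. The single library named for Tet1 and Tet3 also held the highest CA3 values of Hdac4 (943), Dnmt3a (798) and Tet2 (802), which their SD include.

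**Figure D1:**
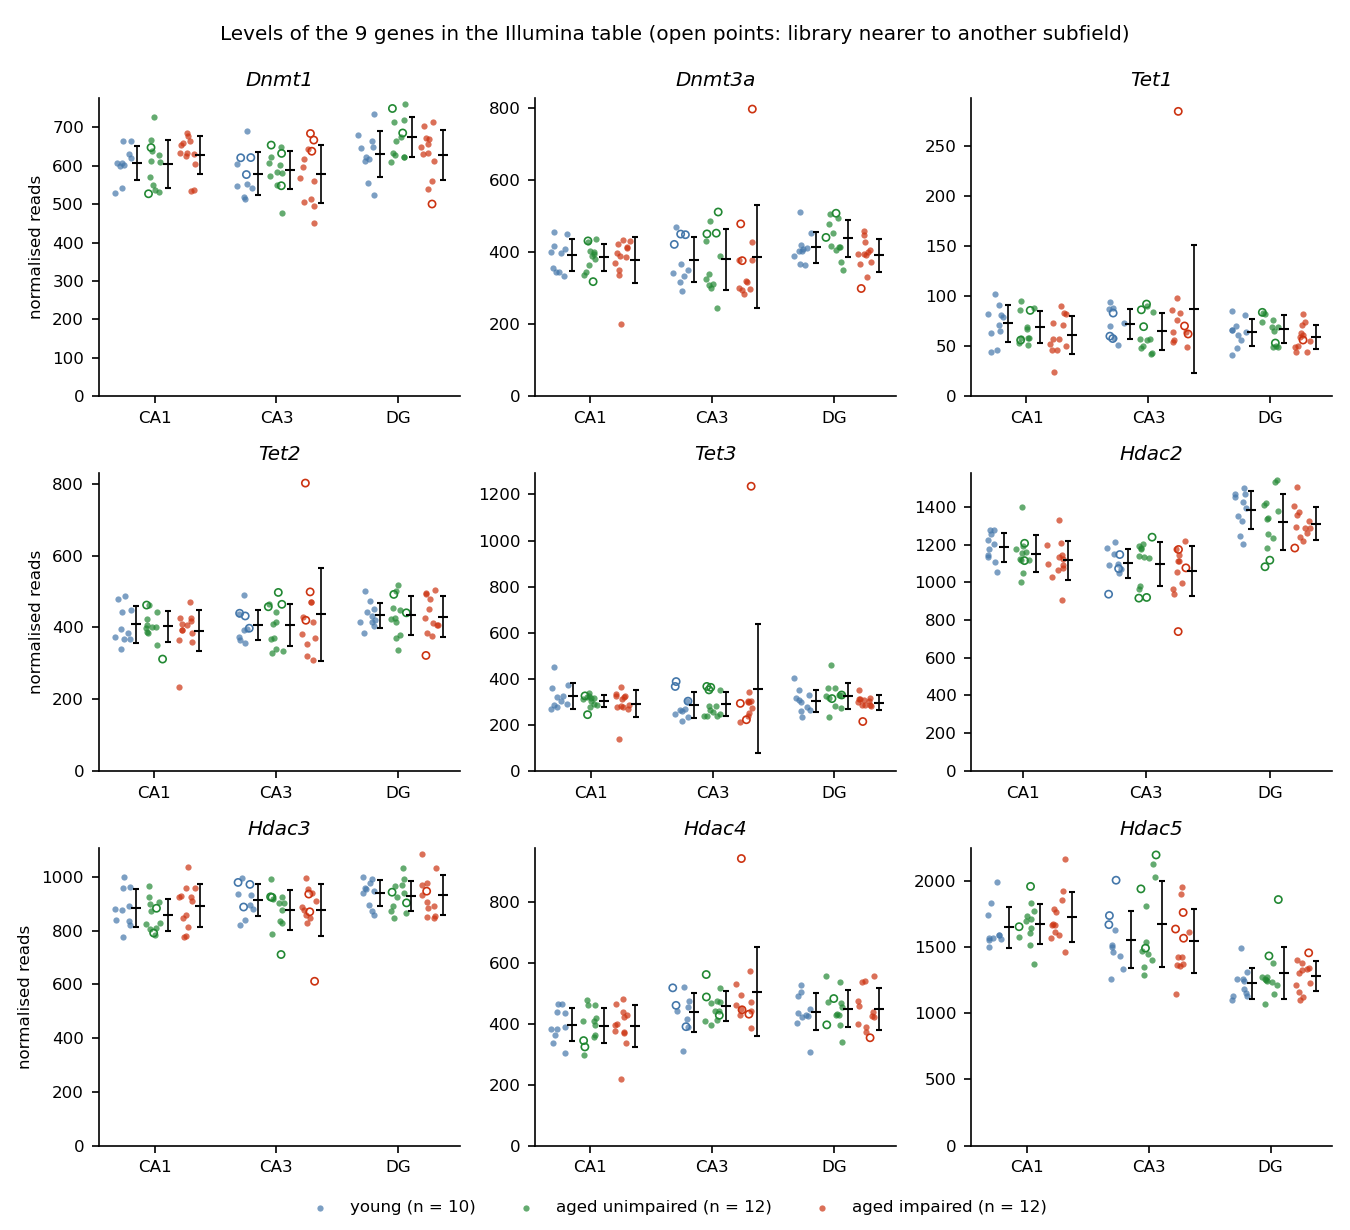
Normalised reads of each of the 9 genes (vertical axes, linear and from 0) in the Illumina table, by subfield and group. Each point is 1 rat, the bars give the group mean and SD, and open points are the 14 libraries nearer to another subfield. Hdac5 lies lower and Hdac2 higher in DG than in CA1 and CA3, while the 3 groups overlap in every panel.

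The first comparison asked which of the genes differed between subfields. Hdac5 was lower in DG than in CA1 and CA3, and Hdac2 was higher in DG than in both, and these were the largest of the called differences in the Illumina table. Hdac3 was slightly higher in DG than in CA1 and CA3, and Dnmt3a was higher in DG than in CA3 over all rats but not in the rats numbered from 9000 up. The 3 Tet genes, Dnmt1 and Hdac4 did not differ by the same rule in any pair of subfields. For a call, limma had to give an adjusted p-value (Benjamini-Hochberg, over all genes) under 0.05 in both poly-A tables and on the same side. By this rule 3 of the 9 were called between CA1 and DG, where 26.9% of all tested genes were, and 4 of 9 between CA3 and DG, where 28.5% were. Between CA1 and CA3 none was called, against 14.4% of all tested genes. By limma, 4 of the 9 had an unadjusted p-value under 0.05 there in the Illumina table, as had 43.6% of all genes, and edgeR and DESeq2 gave 3 each. The median difference of the 9 genes was 0.04 for CA1 minus CA3, -0.09 for CA1 minus DG and -0.06 for CA3 minus DG, and that of all tested genes was 0.01, 0.00 and 0.01.

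Hdac5 (ENSRNOG00000020905, chromosome 10) showed the difference with the largest size. Its normalised reads ranged from 1373 to 2165 in CA1 with a median of 1661, from 1146 to 2197 in CA3 with a median of 1508, and from 1071 to 1860 in DG with a median of 1256. The DG range overlapped the others, but 33 of 34 rats had more Hdac5 in CA1 than in their own DG and 31 of 34 had more in CA3. Hdac5 was 1.33-fold higher in CA1 than in DG (log2 difference 0.41, SE 0.0435, 95% confidence interval 0.321 to 0.493, limma adjusted p = 1.21e-13). The Ion Proton table gave 0.44 (adjusted p = 9.3e-06), with 31 of 34 rats higher in CA1. Against CA3 the difference was smaller, with CA3 1.24-fold above DG (log2 difference 0.31, SE 0.0435, adjusted p = 1.5e-09, and 0.27 in the Ion Proton table, adjusted p = 0.00851, with 23 of 34 rats higher in CA3). This call was lost in the rats numbered below 9000, where the values were 0.20 and, in the Ion Proton table, 0.10 (adjusted p = 0.635). CA1 and CA3 lay closer together, at 1686 ± 165 and 1594 ± 267, and their difference of 0.09 did not pass (adjusted p = 0.0837, and 0.14 in the Ion Proton table). The gap between CA1 and DG was present in each group. It was 0.43 ± 0.174 in young rats, 0.37 ± 0.281 in aged unimpaired rats and 0.43 ± 0.183 in aged impaired rats, and the only rat with more Hdac5 in DG was an unimpaired one whose DG library lay nearer to another subfield.

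Hdac2 (ENSRNOG00000000604, chromosome 20) showed the opposite pattern. It ranged from 905 to 1401 normalised reads in CA1 with a median of 1138, from 739 to 1239 in CA3 with a median of 1114, and from 1083 to 1540 in DG with a median of 1340. In 30 of 34 rats DG exceeded CA1, and in 32 of 34 it exceeded CA3. The DG level was 1.16-fold that of CA1 (log2 difference CA1 minus DG -0.22, 95% confidence interval -0.282 to -0.150, limma adjusted p = 4.3e-08) and 1.23-fold that of CA3 (-0.30, adjusted p = 4.15e-13). Differences in the Ion Proton table were larger, at -0.40 (adjusted p = 1.82e-06) and -0.43 (adjusted p = 4.3e-07). CA1 stood slightly above CA3 in the Illumina table (0.09, adjusted p = 0.0338), but the Ion Proton table gave 0.02 (adjusted p = 0.870), and the pair was not called.

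Because Hdac5 and Hdac2 moved in opposite directions between the same subfields, their promoters are shown, as the 250 bases before the annotated start in RefSeq on the build GRCr8, which differs from the rn5 build of the expression tables. Letters run 5′ to 3′ on the strand of the gene, and capitals mark CG, the dinucleotide on which Dnmt and Tet enzymes act. The Hdac5 window is chr10:87688055-87688304 on the minus strand and the Hdac2 window chr20:42102877-42103126 on the plus strand.
Hdac5: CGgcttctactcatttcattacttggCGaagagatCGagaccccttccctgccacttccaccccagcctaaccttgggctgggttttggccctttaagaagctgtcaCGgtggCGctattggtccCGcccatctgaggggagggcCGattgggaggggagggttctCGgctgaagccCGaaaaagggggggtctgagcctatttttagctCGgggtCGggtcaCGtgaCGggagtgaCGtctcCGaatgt
Hdac2: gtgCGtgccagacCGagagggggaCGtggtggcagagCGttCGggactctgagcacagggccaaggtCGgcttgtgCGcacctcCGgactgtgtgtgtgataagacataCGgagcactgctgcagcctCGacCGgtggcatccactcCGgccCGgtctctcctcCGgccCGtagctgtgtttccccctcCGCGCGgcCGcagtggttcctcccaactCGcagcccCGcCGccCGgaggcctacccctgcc
The Hdac5 window held 15 CG and the Hdac2 window 23, against a median of 5 over 33469 rat promoter windows of the same length. At least as many were found in 25.8% of windows for Hdac5 and in 12.3% for Hdac2. A GC box (GGGCGG, either strand, which overlaps a CG by its own letters) occurred 1 time in each window and in 30.5% of all windows. All 9 genes had an entry in this reference. Methylation of these sites was not measured here.

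Hdac3 (ENSRNOG00000019618, chromosome 18), the catalytic subunit of the NCoR and SMRT corepressor complexes, varied little. Its level was 933 ± 59.8 in DG, 878 ± 69.3 in CA1 and 888 ± 79.1 in CA3, and the ranges of 847 to 1086, 776 to 1036 and 611 to 995 overlapped broadly. DG was 1.06-fold above CA1 (log2 difference CA1 minus DG -0.09, limma adjusted p = 0.00593, Ion Proton -0.24, adjusted p = 0.00138) and higher in 26 of 34 rats. In the rats numbered below 9000 this call was lost (-0.06, adjusted p = 0.0675, Ion Proton -0.06, adjusted p = 0.723). It was 1.05-fold above CA3 (-0.08, adjusted p = 0.0196, Ion Proton -0.16, adjusted p = 0.0407), in 24 of 34 rats. The call against CA3 was lost without the 14 libraries nearer to another subfield (-0.06, adjusted p = 0.0503), with the WT table described further on (-0.04, adjusted p = 0.271), with quantile normalisation, without a filter on low values and in each number series alone.

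Dnmt3a (ENSRNOG00000026649, chromosome 6) ranged from 246 to 798 normalised reads in CA3 with a median of 359 and from 300 to 513 in DG with a median of 408. Its CA3 level was below that of DG in 22 of 34 rats (log2 difference -0.15, 95% confidence interval -0.264 to -0.0263, limma adjusted p = 0.0328). In the Ion Proton table it was below DG in 24 of 34 rats (-0.22, adjusted p = 0.0157). Without the 14 libraries the difference grew to -0.28 (adjusted p = 6.74e-06), but the call was lost without the 7 rats whose Illumina libraries all held over 25 M reads (-0.11, adjusted p = 0.142), with DESeq2 (adjusted p = 0.0521) and with quantile normalisation (adjusted p = 0.0523). It was also lost when any 1 of 8 rats was left out. In the rats numbered from 9000 up the direction turned, to 0.15 (adjusted p = 0.117) and 0.01 in the Ion Proton table.

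**Figure D2:**
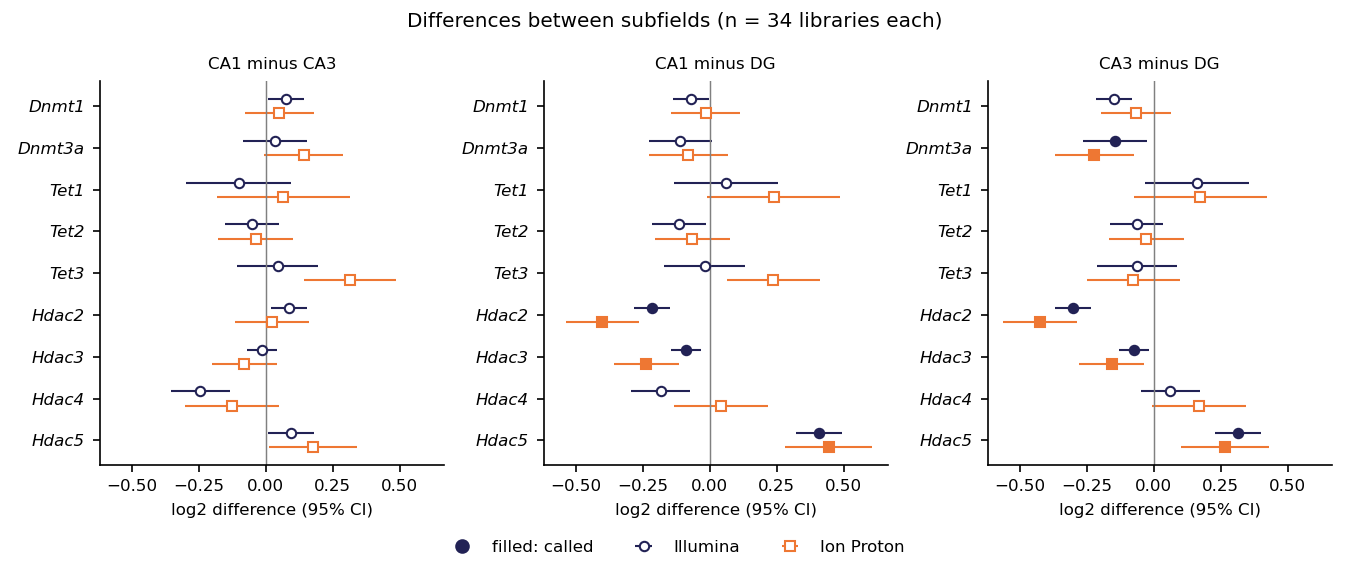
Log2 differences between subfields (horizontal axes) with 95% confidence intervals for the 9 genes, from limma in the Illumina table (circles) and the Ion Proton table (squares), with 34 libraries per subfield. Filled symbols are called. Hdac5 lies to the right of 0 and Hdac2 and Hdac3 to the left against DG, and all symbols of CA1 minus CA3 are open.

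Several differences were seen on 1 platform alone. With the Illumina table on its own, adjusted p-values under 0.05 were found for 2 of the 9 genes between CA1 and CA3 (35.4% of all genes), for 5 between CA1 and DG (55.6%) and for 5 between CA3 and DG (55.6%). Hdac4, a class IIa relative of Hdac5, was lower in CA1 than in CA3 by 0.25 in the Illumina table (adjusted p = 0.000196, 30 of 34 rats), whereas the Ion Proton table gave -0.13 (adjusted p = 0.374). Against DG it had -0.18 in the Illumina and 0.04 in the Ion Proton table. Dnmt1 was lower in CA3 than in DG by 0.15 in the Illumina table (adjusted p = 0.000116, 27 of 34 rats), with -0.07 in the Ion Proton table (adjusted p = 0.471). Tet3 was higher in CA1 than in CA3 by 0.31 in the Ion Proton table (adjusted p = 0.00597), with 0.04 in the Illumina table. Without the 14 libraries Tet3 gave 0.18 in the Illumina table (adjusted p = 0.00643) and 0.32 in the Ion Proton table (adjusted p = 0.0116), and Hdac5 gave 0.15 and 0.24 (adjusted p = 0.00258 and 0.0476), so that both were called between CA1 and CA3, where 19.7% of all genes were called with these libraries left out. These differences thus depended on the libraries kept.

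Some subfield differences that involved CA3 also differed between the number series. For CA1 minus CA3 this was so for 4 of the 9 genes in the Illumina table (39.7% of all tested genes) and for 1 in the Ion Proton table (15.0%), by the test given next. The 4 were Dnmt1, Dnmt3a, Tet2 and Hdac5 and the 1 was Hdac3, so that no gene passed in both tables. For CA3 minus DG, Dnmt3a was -0.40 ± 0.222 in the 18 rats numbered below 9000, none of which had more Dnmt3a in CA3, and 0.15 ± 0.316 in the 16 rats from 9000 up, of which 12 had more. A test of this gap between series was added after the values were seen and kept the 14 libraries nearer to another subfield. It gave -0.55 (limma adjusted p = 1.51e-06) in the Illumina table and -0.43 (adjusted p = 0.0185) in the Ion Proton table. Dnmt1 behaved alike (-0.33, adjusted p = 1.77e-06, Ion Proton adjusted p = 0.0173). Altogether 5 of the 9 genes differed between series in CA3 minus DG in the Illumina table, against 48.4% of all tested genes, and 2 in the Ion Proton table, against 17.1%, so this property was shared widely in these libraries. For CA1 minus DG it was seen in none of the 9 in either table, and in 0.839% of all genes in the Illumina and 0.203% in the Ion Proton table. The lowest adjusted p of limma was 0.185 in the Illumina table, with 2 unadjusted p-values under 0.05. In the Ion Proton table it was 0.101, for Hdac3 (-0.06 below 9000 and -0.44 from 9000 up), also with 2 unadjusted p-values under 0.05. In the Illumina table Hdac5 in CA1 minus DG was 0.43 below 9000 and 0.39 from 9000 up, and Hdac2 was -0.24 and -0.19. Hdac3 in CA1 minus DG was -0.06 and -0.12. In CA3 minus DG, Hdac2 was -0.28 and -0.32 and Hdac3 was -0.09 and -0.05. Hdac5 in CA3 minus DG was 0.20 below 9000 and 0.44 from 9000 up, a gap of -0.23 (adjusted p = 0.00282). In the Ion Proton table it was 0.10 below 9000, with 9 of 18 rats higher in CA3, and 0.46 from 9000 up (adjusted p of the gap 0.107).

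**Figure D3:**
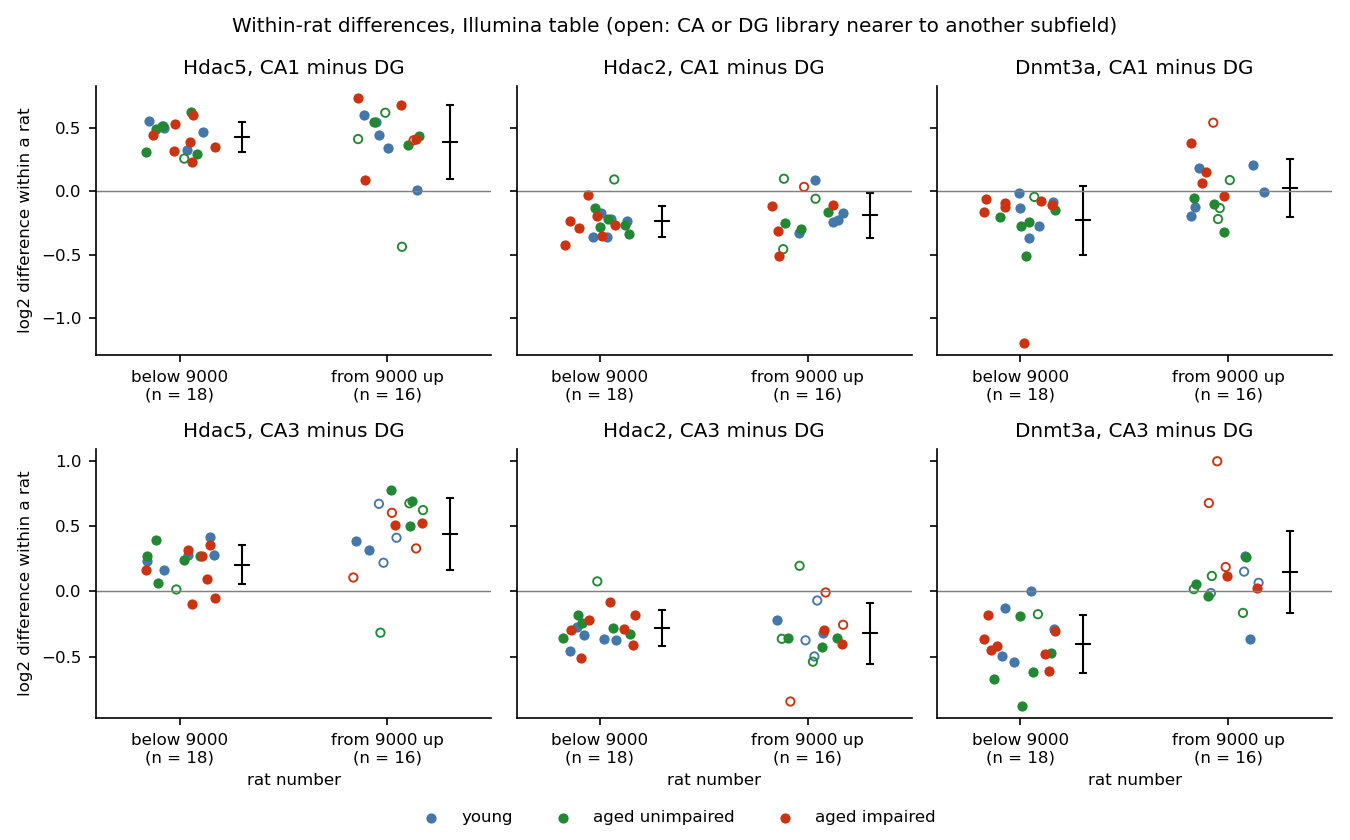
Log2 difference between 2 subfields of the same rat (vertical axes) for Hdac5, Hdac2 and Dnmt3a in the Illumina table, split by rat number. Each point is 1 rat coloured by group, bars give the mean and SD, and open points hold a library nearer to another subfield. Hdac5 is mostly above 0 and Hdac2 mostly below in both series, whereas Dnmt3a in CA3 minus DG lies below 0 in the lower series and mostly above it in the other.

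The subfields also differed in markers of cell types. Of 8 general neuronal markers, 4 were called lower in CA1 than in DG, 5 lower and 1 higher in CA1 than in CA3, and 1 lower in CA3 than in DG. Their summed level had a median of 71360 normalised reads in DG, 60837 in CA1 and 73652 in CA3. All 8 oligodendrocyte markers and all 6 precursor markers were called lower in DG than in CA1 and than in CA3. The summed level of the oligodendrocyte markers had a median of 77541 normalised reads in DG (46121 to 223794), 130574 in CA1 (76317 to 298315) and 158018 in CA3 (56377 to 392035). No oligodendrocyte marker was at 0 in all libraries of a subfield. Of 8 microglial markers, 3 were higher in CA1 and 6 higher in CA3 than in DG. Of 6 endothelial markers 4 were higher in CA1 than in DG, and of 8 astrocyte markers 1 was higher in CA1 and 3 in CA3 than in DG. Of 7 interneuron markers, 3 were higher in CA1 and 3 in CA3 than in DG. After removal of the group means, Hdac5 followed the oligodendrocyte sum over the Illumina libraries with r = 0.12 and the general neuronal sum with r = -0.59 (0.02 and -0.60 in the Ion Proton table). Hdac2 gave r = -0.23 and 0.44 (-0.09 and 0.27 in the Ion Proton table). With the astrocyte sum, Hdac5 had r = 0.56 and Hdac2 r = -0.41 in the Illumina table, and 0.14 and -0.13 in the Ion Proton table. These points share rats, library depth and the rat number series, and the part of cell makeup in the differences of Hdac5 and Hdac2 was not tested.

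The second comparison asked whether the genes changed with age within a subfield. None of the 9 was called in CA1, CA3 or DG. The rule was that of the study, which asked for a p-value under 0.01 from Illumina and for Ion Proton to repeat the direction at a one-sided p-value under 0.05. It called 0.851%, 0.402% and 1.09% of all tested genes. Of the 27 Illumina tests with limma, none reached an unadjusted p-value under 0.05, a level passed by 6.15%, 3.31% and 5.20% of all genes in CA1, CA3 and DG, and neither did any with edgeR or DESeq2. The aged minus young differences ran from -0.17 (Tet1 in CA1) to 0.13 (Hdac4 in CA3), with the lowest adjusted p = 0.940 by limma. The 95% confidence intervals of all 27 lay between -0.475 and 0.406, so that larger changes in either direction were outside them. A p-value over the threshold does not show that levels were equal, and the intervals differed in width from gene to gene. They reached 0.108 on either side of the estimate for Hdac3, 0.118 for Dnmt1, 0.124 for Hdac2 and 0.368 for Tet1.

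Hdac2 had the smallest p-value with age, in DG. The 10 young rats had 1205 to 1502 normalised reads with a median of 1409, and the 24 aged rats had 1083 to 1540 with a median of 1310. The aged range held the young range entirely. The difference was -0.08 (SE 0.0469, limma p = 0.115, adjusted p = 0.999), and the Ion Proton table gave -0.07. Hdac2, Hdac3, Dnmt3a and Tet1 had an estimate below 0 in all 3 subfields on both platforms, and Hdac5 had one above 0 in all of them. These signs were not tested as a group. The Ion Proton table held 1 unadjusted p-value under 0.05, for Tet1 in DG (-0.39, p = 0.0327, limma adjusted p = 0.585). In that table Tet1 had 44.9 to 118 normalised reads in young and 21.3 to 97.0 in aged rats, while the Illumina estimate was -0.02. Microglial markers, in contrast, were called higher with age for 4 of 8 in CA1, 2 of 8 in CA3 and 5 of 8 in DG.

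**Figure D4:**
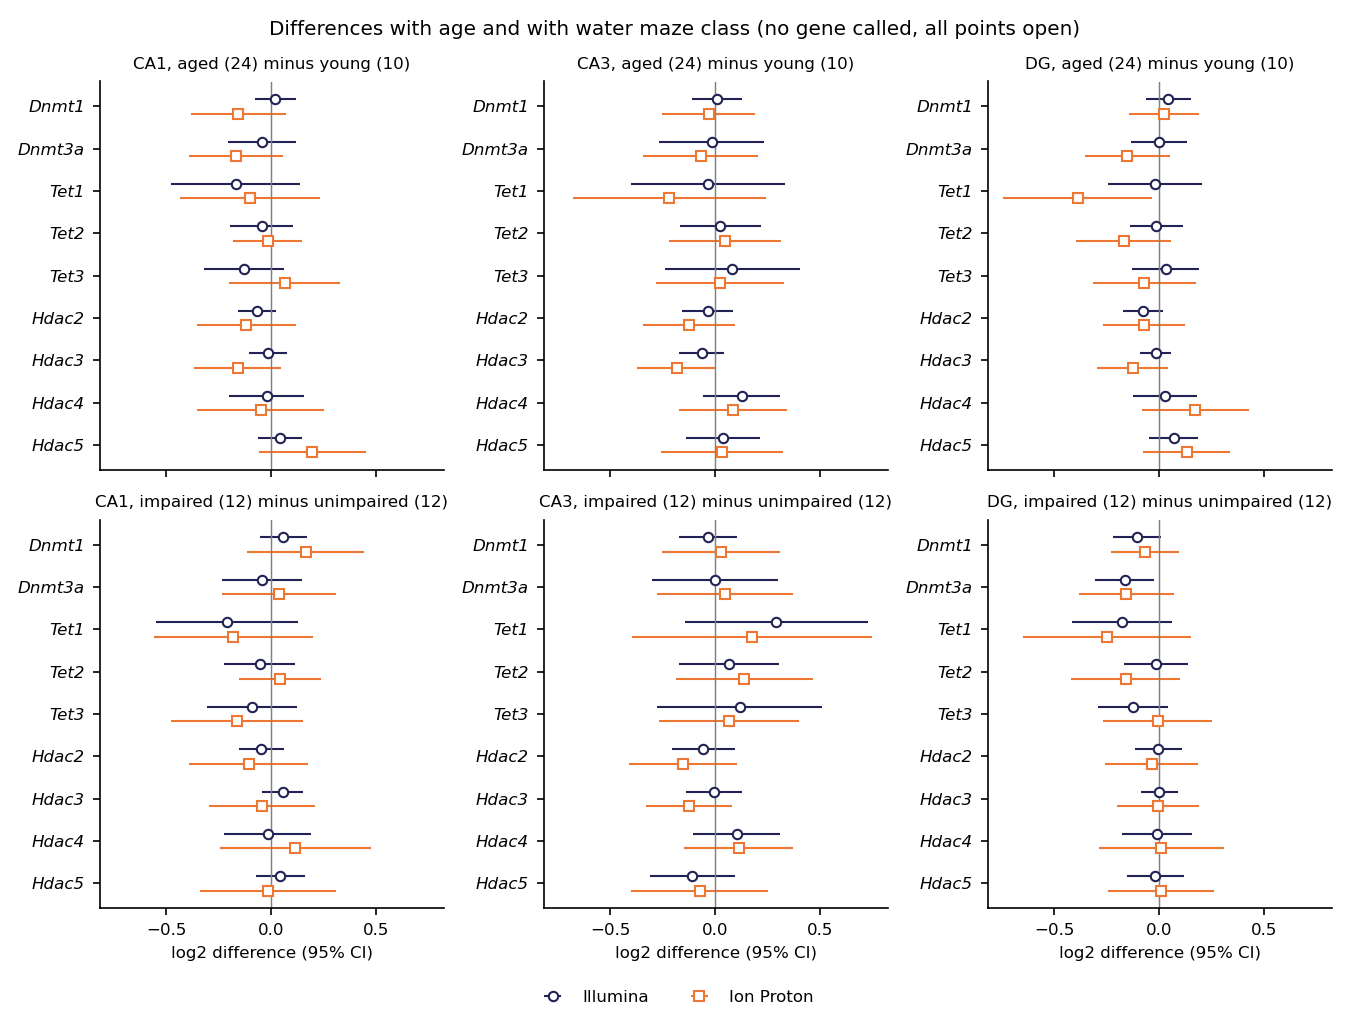
Log2 differences (horizontal axes) with 95% confidence intervals from limma for aged minus young rats (upper row, 24 and 10 rats) and aged impaired minus aged unimpaired rats (lower row, 12 and 12) in each subfield. Circles are the Illumina and squares the Ion Proton table. All symbols are open because none of the 9 genes was called, and the intervals of Tet1 are the widest.

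Cognition was examined by setting aged impaired against aged unimpaired rats. Again none of the 9 genes was called in any subfield, where 0.635% of genes in CA1, 0.0216% in CA3 and 0.124% in DG were. The lowest adjusted p of limma was 0.996. The 95% confidence intervals of the 27 Illumina tests ran from -0.548 to 0.731, so that levels were not shown to be equal. A single Illumina test of 27 had an unadjusted p-value under 0.05 with limma, with edgeR and with DESeq2, and no Ion Proton test had one with limma. It was Dnmt3a in DG, where 3.85% of all tested genes passed that level, against 5.71% in CA1 and 1.40% in CA3. Unimpaired rats had 350 to 509 normalised reads with a median of 430, impaired rats had 300 to 458 with a median of 396, and young rats had 365 to 513 with a median of 407. The impaired minus unimpaired difference was -0.16 (SE 0.0685, 95% confidence interval -0.304 to -0.0228, limma p = 0.0245, adjusted p = 0.999). The Ion Proton table gave the same estimate of -0.16 with p = 0.170. Groups overlapped for most of their range. Young rats lay between the aged groups in the Illumina mean, whereas in the Ion Proton table their mean was the highest, at 299 ± 48.7 against 284 ± 46.5 in unimpaired and 257 ± 58.1 in impaired rats. The Illumina estimate in CA1 was -0.04 and that in CA3 was 0.00.

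The aged groups were also set against the same young rats, so these comparisons share their controls. Of the 9 genes none was called for aged unimpaired against young rats, where 0.621%, 0.394% and 0.635% of all genes were in CA1, CA3 and DG. None was called for aged impaired against young rats either, where 1.23%, 0.280% and 0.968% were. In the Illumina table limma, edgeR and DESeq2 gave 0 unadjusted p-values under 0.05 in both sets of 27 tests. The Ion Proton table gave 0 for unimpaired and 2 for impaired against young rats, for Tet1 in DG (-0.51, p = 0.0292, limma adjusted p = 0.694) and Hdac3 in CA3 (-0.25, p = 0.0216, adjusted p = 1.00). The Ion Proton mean of Hdac3 in CA3 was 677 in impaired and 810.1 in young rats, and 764 in young rats without the highest library. Of all genes in the Illumina table, limma gave an unadjusted p-value under 0.05 to 4.87%, 3.30% and 4.20% for unimpaired and to 7.96%, 2.46% and 5.30% for impaired against young rats. For Tet1 in CA1 the differences were -0.06 in unimpaired and -0.27 in impaired rats (SE 0.145 and 0.185), and the latter was -0.16 without the impaired rat R1931, described further on. For Dnmt1 in DG they were 0.10 and -0.01. Whether the age effect differed between subfields was tested directly as an interaction. It was called for 0 of the 9 genes and 0 of all genes in each pair of subfields. The smallest unadjusted p of limma was 0.214, for Tet3 in CA1 against CA3, and edgeR also gave 0 p-values under 0.05.

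Some of the spread came from 2 libraries. The CA3 library of the aged impaired rat R9875 was the shallowest of the Illumina table (3.25 M reads) and lay nearer to another subfield. It had the highest CA3 values of Dnmt3a (798), Tet1 (284), Tet2 (802), Tet3 (1236) and Hdac4 (943), and the lowest of Hdac2 (739) and Hdac3 (611). For Tet3 the other 33 CA3 libraries lay between 213 and 388, and in the Ion Proton table the same tissue gave 355, within the range of 158 to 614 of the others. Counted from the highest of 34 there, the tissue stood at 2 for Tet1, 8 for Tet2, 11 for Dnmt3a and 17 for Hdac4. It stood at 9 for Hdac2 and at 31 for Hdac3, for which it stood at 33 in the WT table. Without the Illumina library, the CA3 impaired minus unimpaired difference of Tet1 went from 0.29 to 0.12 and that of Tet3 from 0.12 to -0.06. The aged minus young difference of Hdac4 in CA3 went from 0.13 to 0.08. The CA1 library of the aged impaired rat R1931 (40.3 M reads) was the reverse. It had the lowest CA1 values of Dnmt3a (199.7), Tet1 (24.7), Tet2 (234.5), Tet3 (136) and Hdac4 (217) and the highest of Hdac3 (1036), and in the Ion Proton table it was again lowest in Tet1, Tet2, Tet3 and Hdac4 and highest in Hdac2 and Hdac3. In the WT table it was at neither end for any of these genes. Counted from the highest of 34 it stood there at 32 for Dnmt3a, 11 for Tet1, 5 for Tet2 and 13 for Tet3. It stood at 4 for Hdac4, 29 for Hdac2 and 13 for Hdac3. Without it, Tet1 in CA1 went from -0.17 to -0.11 for aged minus young and from -0.21 to -0.10 for impaired minus unimpaired rats.

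Deviations from the group means were then compared between the 9 genes. Of the 36 pairs, 11 had r over 0.5 in the Illumina table, as had 3.52% of all pairs of tested genes, and 2 of these had it in the Ion Proton table too, where 4 pairs of the 9 genes and 5.6% of all pairs did. Without the 2 libraries just described, 5 pairs were over 0.5 in the Illumina table (3.04% of all pairs) and 4 in the Ion Proton table, and 1 in both. With all libraries the pairs over 0.5 in both tables were Tet3 with Hdac4 (0.74 and 0.68) and Tet1 with Tet2 (0.63 and 0.58), of which Tet1 with Tet2 fell to 0.43 in the Illumina table without the 2 libraries. Dnmt3a with Tet2 had the highest Illumina value, 0.84, and 0.38 in the Ion Proton table (0.75 and 0.38 without the 2 libraries). Hdac2 ran against Hdac5 (-0.70 and -0.46) and against Hdac4 (-0.59 and -0.71), and Hdac3 ran against Hdac4 (-0.54 and -0.77). Without the 2 libraries these were -0.72 and -0.45, -0.46 and -0.68, and -0.36 and -0.75. The points share rats, and Illumina depth moved with several of the genes. Its r with the deviations was -0.55 for Hdac4, -0.52 for Tet3 and 0.44 for Hdac2, whereas in the Ion Proton table it was 0.19, 0.11 and 0.00. The part of depth in these correlations was not tested.

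For the gene of each family with the largest F statistic between subfields in the Illumina table (Hdac5, Tet2 and Dnmt1), the 3 most alike genes over the Illumina libraries were sought by Pearson's r, which includes the differences between subfields. Hdac5 was most like Inpp5d (r = 0.89, Ion Proton 0.78), Stard10 (0.89, Ion Proton 0.83) and Hdac11 (0.87, Ion Proton 0.52). Tet2 was most like Kmt2a (0.83, Ion Proton 0.57), Dnmt3a (0.82, Ion Proton 0.39) and Kmt2c (0.81, Ion Proton 0.46). Kmt2a and Kmt2c encode histone methyltransferases. Dnmt1 was most like Igsf3 (0.77, Ion Proton 0.46), Usp13 (0.76, Ion Proton -0.15) and C2cd4c (0.75, Ion Proton 0.63), so the likeness to Usp13 was not seen on the other platform. In the order of the subfield F statistic among 14179 genes, Hdac5 stood at 472, Hdac2 at 642, Dnmt1 at 6104, Tet2 at 11018 and Tet3 at 13655.

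Other genes of the same pathways were counted in 6 lists with 79 genes, of which 77 were in the table and 71 were tested. The lists were fitted with all libraries, the 14 nearer to another subfield included. Calls in the lists that involve CA3 were thus not checked without these libraries or by number series. In the lists together, 16.9% of the tested genes were called between CA1 and CA3, 16.9% between CA1 and DG and 29.6% between CA3 and DG, beside 14.4%, 26.9% and 28.5% of all genes. Among the other 19 tested writers, readers and removers of DNA methylation, 3 were called between CA1 and CA3, 3 between CA1 and DG and 4 between CA3 and DG. Tdg, the glycosylase that removes oxidised methylcytosine, was lower in CA1 and in CA3 than in DG (-0.15 and -0.27). Gadd45b, linked to active demethylation, was higher in CA1 and in CA3 than in DG (0.23 and 0.29), and so was Idh2 (0.23 in both). Idh1 was higher in CA3 than in DG (0.19). Mbd4, another glycosylase, was higher in CA1 than in CA3 (0.32), and so was the methyl-CG binding protein gene Mbd1 (0.12), whereas Ahcy was lower (-0.18). The medians of this list were 0.07, 0.03 and -0.01.

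Of the 6 other zinc-dependent deacetylases, 1 was called between CA1 and CA3, 1 between CA1 and DG and 2 between CA3 and DG. Hdac11 was higher in CA1 than in DG (2250 ± 296 against 1387 ± 357 normalised reads, log2 difference 0.72, Ion Proton 0.59) and higher in CA3 than in DG (0.59), the same side as Hdac5. Hdac9, another class IIa enzyme, was highest in CA3, with 502 ± 141 normalised reads there against 336 ± 69.5 in CA1 and 312 ± 68.3 in DG. Its differences were -0.54 for CA1 minus CA3 and 0.65 for CA3 minus DG. Among 7 sirtuins, the NAD-dependent deacetylases, 1, 1 and 2 were called in the 3 pairs, with Sirt2 lower in DG than in CA1 and CA3 (0.22 in both), Sirt5 higher in CA1 than in CA3 (0.09) and Sirt3 lower in CA3 than in DG (-0.09).

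Among 24 corepressor subunits, 4 were called higher in CA1 than in CA3 and 0 lower. Between CA1 and DG, 1 was higher in CA1 and 3 were lower, and between CA3 and DG, 1 was higher in CA3 and 7 were lower. Sin3b, a scaffold for class I deacetylases, was higher in DG than in CA1 and CA3 (-0.21 and -0.24), as Hdac2 was. Ncor1, the partner of Hdac3, was lower in CA3 than in DG (-0.26) and than in CA1 (0.14), and so was the NuRD subunit Mta2 (-0.18 and 0.19). Chd3 (0.23) and Suds3 (0.14) were higher in CA1 than in CA3. Rbbp7 and Tbl1xr1 were lower in CA1 than in DG (-0.19 and -0.14), and Gatad2b was lower in CA3 than in DG (-0.21). Tbl1x, also of the NCoR complex, was lower in DG than in both (0.41 and 0.39). The list medians were 0.02, -0.09 and -0.12. Of 12 acetyltransferases, which oppose the deacetylases, 1, 2 and 3 were called, and Kat2b was lower in DG than in CA1 and in CA3 (0.37 and 0.57), as was Kat5 (0.08 and 0.11). Kat6b was lower in CA3 than in CA1 (0.20) and than in DG (-0.38). Of 3 tested Mef2 factors, which class IIa deacetylases bind, 2, 1 and 2 were called. Mef2c and Mef2d were higher in CA1 than in CA3 (0.47 and 0.37) and higher in DG than in CA3 (-0.66 and -0.61), and Mef2a was lower in CA1 than in DG (-0.19). None of the 71 genes was called in any comparison of age or cognition, or for an age effect that differed between subfields.

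A further table, named WT by the submitters and with no library type stated, was normalised separately. In the place of the Illumina table it gave the same direction for the 7 called differences and kept 6 of the calls, but Hdac3 in CA3 against DG was -0.04 (adjusted p = 0.271) and was not called. Hdac5 was lower in DG than in CA1 in 30 of 34 rats and Hdac2 higher in 31 of 34, at 0.35 (limma adjusted p = 3.38e-10) and -0.28 (adjusted p = 2.34e-10). Hdac4 was lower in CA1 than in CA3 in 32 of 34 rats, as in the Illumina table. Tet1 stood higher on the scale of this table, with a median of 200.1 normalised reads against 64.7 in the Illumina and 74.0 in the Ion Proton table. Since each table has its own scale, levels cannot be compared between them directly.

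**Figure D5:**
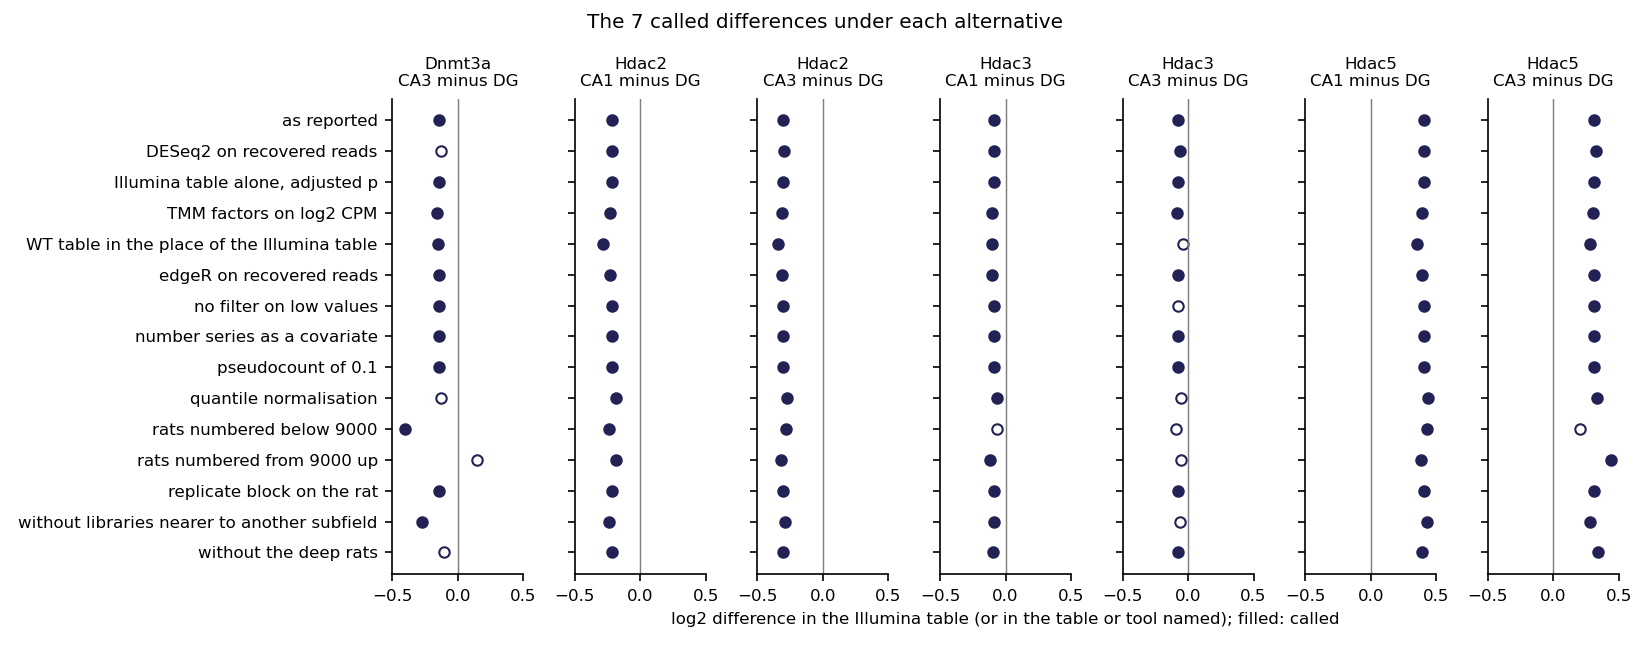
Log2 differences (horizontal axes) of the 7 called differences as reported and under 14 other choices of processing, tool or libraries (listed down the vertical axis), with filled points where the call held. Hdac2 in both pairs and Hdac5 in CA1 minus DG are filled under every choice, and Dnmt3a changes side in the rats numbered from 9000 up. The choice of the Illumina table alone could lose no call.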

How the data were processed

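Total RNA of CA1, CA3 and DG was sequenced after poly-A selection on an Illumina HiSeq (trimmed with cutadapt 1.8.3, aligned to rn5 with STAR 2.5) and on an Ion Proton (TopHat2 and Bowtie2 on rn5). Reads were counted per gene with featureCounts 1.4.4. The authors divided the counts by a DESeq2 size factor per library, so the deposited values are a normalised signal and not raw counts. In every library 100.0% of the values were whole multiples of 1 step (tolerance 0.01), which returned the reads used for depth and for count tests. The sources name different Illumina kits, so the strand setting of the counting is not known and genes that overlap may share reads. The library type, aligner and counter of the WT table are not given in the sources used here, and it served as an alternative only. Start and end positions of genes in rn5 were not used here.

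Within each table, a mean value of 10 or more was required, and log2(value + 1) was fitted by limma 3.58.1 under R 4.3.3 with its variance trend. This scale understates changes of low genes. Subfields were fitted over all libraries of a table, age over 34, and cognition over the 24 aged libraries of a subfield. P-values were adjusted over all genes. Count tests with edgeR 4.0.16 and DESeq2 1.42.0 were run on recovered reads. The libraries of a rat pair the subfields by animal, and the median correlation of their deviations was -0.03 to 0.19 in the Illumina table. Scripts were tested on simulated data. Alternatives were a pseudocount of 0.1, no filter, quantile and TMM normalisation, both count tools, 1 table alone, the WT table, a replicate block, the number series as a covariate or split, and leaving out deep rats (over 25 M reads in every Illumina library), the 14 libraries or each rat in turn. All 9 genes were to be named, and of the lists the called genes, at most 5 per list and comparison by size. The members, lists and rules were chosen with earlier results of these data known. Rats came from more than 1 colony and testing site, which the labels do not tie to a rat. The Ion Proton libraries came from the same rats, so that table repeats the measurement and not the animals.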

Additional observations from a re-analysis of the deposited data

Results flagged for a closer look

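In groups of 10 young libraries, 2 of 54 groups held a library whose distance to the nearest other exceeded the share of the group's range that Dixon's 95% limit allows for 10 values (which chance passes in about 1 in 20 groups). The DG library of young rat R1923 had the highest Tet2 of its group in the Ion Proton table, at 607.4 normalised reads against 469 for the next. Without it the mean of young DG went from 435 to 415 normalised reads. The CA3 library of young rat R1922 had the highest Hdac3 in the same table, at 1222 normalised reads against 883 for the next, and the mean of young CA3 went from 810.1 to 764 without it. Neither library lay nearer to another subfield, and their depths were 18.7 M and 8.22 M reads.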

How the results depend on the processing

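Of 42 values that the 3 counts of called genes between subfields took under alternatives, 35 stayed within 1.5 times the value reported and 7 did not. The other 15 counts, of age, cognition and the age effect between subfields, were 0 throughout, and their adjusted p-values were too high for this to speak to stability. Between CA1 and CA3, 0 called genes became 2 in the Illumina table alone (Hdac2 and Hdac4), 2 in rats numbered below 9000 (Dnmt3a at 0.17 and Hdac5 at 0.22) and 2 without the 14 libraries (Hdac5 and Tet3). Between CA1 and DG, 3 became 5 in the Illumina table alone (Hdac4 and Tet2 added). Between CA3 and DG, 4 became 2 with quantile normalisation, 2 in rats numbered below 9000 and 2 in rats from 9000 up. Dnmt3a in CA3 minus DG reversed to 0.1466 in rats from 9000 up. Leaving out 1 rat at a time gave 0 to 0 for CA1 against CA3, 3 to 3 for CA1 against DG and 2 to 4 for CA3 against DG (2 without any 1 of rats R2184, R2233 and R2237), and 0 in all other comparisons. With the replicate block on the rat, which pairs the subfields of an animal, 0, 3 and 4 genes were called in the 3 pairs, and the block changed no call. No paired analysis was possible for age and cognition because the groups hold different rats.

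Hdac2 in both pairs with DG and Hdac5 in CA1 against DG were called in 14 of 14 alternatives and 34 of 34 omissions of a rat. The Illumina table alone, counted among the 14, could lose no call, since each call already had to pass in that table. Hdac5 in CA3 against DG and Hdac3 in CA1 against DG were called in 13 of 14, both lost in rats below 9000. Hdac3 in CA3 against DG was called in 8 of 14 and 19 of 34, and Dnmt3a in 10 of 14 and 26 of 34. The cause of these losses was not tested. No gene was called for age or cognition under any alternative or omission. The lowest p of limma there was 0.00893 under alternatives, for Hdac3 in CA1 with age in the WT table (-0.12), and 0.00724 under omissions, for Dnmt3a in DG with cognition without rat R9782 (-0.19). Of 2107 uncalled differences under alternatives, 257 had another sign.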
